A study of Oryctolagus cuniculus with 6 samples.

Results

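The circular RNAs (circRNAs) described here are the 273 better-counted ones from host genes with few circles, out of 1694 in the authors' table for rabbit ear scars. A circRNA was taken when it had 6 or more reads summed over 6 rabbits and either its host gene had 1 or 2 listed circRNAs or the table gave it no host. Of the 273, 163 were the sole listed circRNA of their host, 107 came from hosts with 2 listed circRNAs, and 3 had no host. Read totals and the number of circles per host chose the circRNAs, so neither is a finding. The tissue was labelled hypertrophic scar and was taken at day 21 from female New Zealand White rabbits, each with 6 full-thickness wounds per ear. In the ADSC-Exos arm, 3 rabbits received exosomes, vesicles shed by adipose-derived stem cells, as 100 µg in 2 ml, and in the Control arm 3 rabbits received saline. The design text gives 3 days of application and the sample labels give 21, which the sources used here do not settle. Ages of the animals, and how the wounds of 1 rabbit were combined, are not given in the sources used here.

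CircRNAs are closed loops that form when the end of a downstream exon is spliced back to the start of an upstream exon. They lack free ends, so exonucleases degrade them slowly, and some accumulate well beyond what their low rate of formation would give. A circRNA is told apart from the linear transcript of its host by reads across the back-splice alone, which is why counts stay low in libraries made from total RNA, and the labels describe no enrichment for circles. Among the best-known loops, some bind microRNAs or proteins, and most have no known role.

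Each deposited value was log2 of normalized reads plus 1, where normalized reads are whole reads divided by a size factor for the library. Reads in all listed circRNAs ranged from 856 to 1592 in ADSC-Exos rabbits and from 1071 to 1146 in Control rabbits. Library totals are unknown, since the table holds only circRNAs with an absolute log2 difference over 1, a difference being the ADSC-Exos mean minus the Control mean. Every circRNA below was therefore already selected for a difference between these same rabbits. A count of 0 in a rabbit allows up to 3 reads, and such limits cover counting error only. Of 30 marker genes of 10 cell types, 8 were among the selected mRNAs used here, and 0 of 6 fibroblast markers were, so the scar label could not be checked against them. Summed reads of the listed erythroid markers, HBB2 and ALAS2, ranged from 3558 to 6946 in ADSC-Exos and from 11434 to 33117 in Control rabbits. The listed cartilage marker, COL10A1, ranged from 2686 to 5840 in ADSC-Exos and from 9839 to 21189 in Control rabbits. For muscle (MYH1 and MYH7) the sums ran from 4 to 8 in ADSC-Exos and from 7 to 247 in Control rabbits, and for macrophages (MSR1) from 78 to 338 in ADSC-Exos and from 69 to 95 in Control rabbits. No marker named here was at 0 throughout an arm. The part of these cell types in the circRNA differences was not tested, and in bulk tissue fewer cells of a type and less RNA per cell cannot be told apart.

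The circRNAs with most reads came from hosts with unlike roles, and high counts in a few rabbits were frequent among them. The circRNA of KANSL1L, a relative of a subunit of the KAT8 histone acetyltransferase complex, had the most reads of the whole table, 83. It spans chromosome 7 from 150920306 to 150953283. It had 0, 37 and 35 reads in ADSC-Exos rabbits 1 to 3, against 11, 0 and 0 in Control rabbits 1 to 3. A rabbit without reads was thus found in each arm, so the arms overlap. The log2 means were 4.11 ± 3.56 in ADSC-Exos and 1.50 ± 2.60 in Control scars (SD, n = 3 each), a difference of 2.61 (SE 1.08) that did not pass an adjusted p of 0.05 (limma, adjusted p = 0.117). Without ADSC-Exos rabbit 1 the difference was 4.66, and without Control rabbit 1 it was 4.11; without ADSC-Exos rabbit 2 or 3 it was 1.56 or 1.60.

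The circRNA of SLC30A7, a zinc transporter of the secretory pathway, followed with 66 reads. Its reads were 7, 8 and 1 in ADSC-Exos rabbits and 20, 15 and 15 in Control rabbits. All Control rabbits lay above all ADSC-Exos rabbits, and the Control rabbits were alike, with log2 values of 3.22 ± 1.43 in ADSC-Exos and 5.06 ± 0.23 in Control scars. The difference of -1.84 (SE 1.61) did not pass (limma, adjusted p = 0.254), and leaving out ADSC-Exos rabbit 3 gave -1.01. The circRNA of ISM1, a secreted protein, had 3, 15 and 17 reads in ADSC-Exos rabbits and 3, 5 and 3 in Control rabbits. ADSC-Exos rabbit 1 lay at the Control level while the other ADSC-Exos rabbits stood above it. The difference was 1.32 (SE 1.39), 2.01 without ADSC-Exos rabbit 1 and smaller than 1.32 without ADSC-Exos rabbit 2 or 3. The circRNA of C12orf4 had 5, 1 and 1 reads in ADSC-Exos rabbits and 0, 19 and 19 in Control rabbits, so Control rabbit 1 had none where the other Control rabbits had their most. Its difference was -1.27 (SE 1.10), -3.02 without Control rabbit 1 and -0.39 without Control rabbit 2 or 3. With a pseudocount of 0.01 in place of 1 it turned to 0.54.

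Hosts of the next most-read circRNAs act in secretion, signalling, transcription and splicing, and most of these circRNAs had arms that do not overlap. So did 10 of the 16 with 20 or more reads, against 30.8% of the 273 and 12% of the table. A short circRNA of SEC24A, a cargo adaptor of the COPII coat, spans 572 bases and had 6, 12 and 7 reads in ADSC-Exos rabbits against 2, 2 and 2 in Control rabbits. The circRNA of CGRRF1, a RING finger protein, spans 468 bases and had 5, 12 and 9 reads in ADSC-Exos rabbits and 4, 3 and 2 in Control rabbits. The circRNA of INTS14, a subunit of the Integrator complex, had 4, 8 and 11 reads in ADSC-Exos rabbits and 0, 3 and 3 in Control rabbits. For these 3 the arms did not overlap, and the differences were 1.81 for SEC24A, 1.40 for CGRRF1 and 2.10 for INTS14; that of INTS14 was 1.17 without Control rabbit 1. A circRNA of SF3B3, a subunit of the splicing factor that binds the branch point, had 4, 4 and 12 reads in ADSC-Exos rabbits and 0, 3 and 2 in Control rabbits, a difference of 1.99 (SE 1.04), or 1.14 without Control rabbit 1.

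MAPK6, an atypical MAP kinase, and KRIT1, a protein of endothelial junctions, gave circRNAs whose arms separate through the size factors alone. That of MAPK6 had 3, 11 and 7 reads in ADSC-Exos rabbits and 3, 2 and 2 in Control rabbits. That of KRIT1 had 4, 7 and 9 reads in ADSC-Exos rabbits and 4, 1 and 2 in Control rabbits. In each case the lowest ADSC-Exos and the highest Control rabbit had the same number of reads. The circRNA of POLR3C, a subunit of RNA polymerase III, had 1, 1 and 3 reads in ADSC-Exos rabbits and 8, 5 and 4 in Control rabbits, with no overlap. That of ELK1, a transcription factor that responds to MAP kinases, had 3, 2 and 1 reads in ADSC-Exos rabbits and 15, 1 and 5 in Control rabbits, and Control rabbit 1 held 55.6% of its reads. Its difference of -1.04 was -0.24 without that rabbit and -1.92 without Control rabbit 2. The circRNAs from SEC24A through ELK1 named here had adjusted p-values from 0.117 to 0.328 (limma), and none passed.

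**Figure D1:**
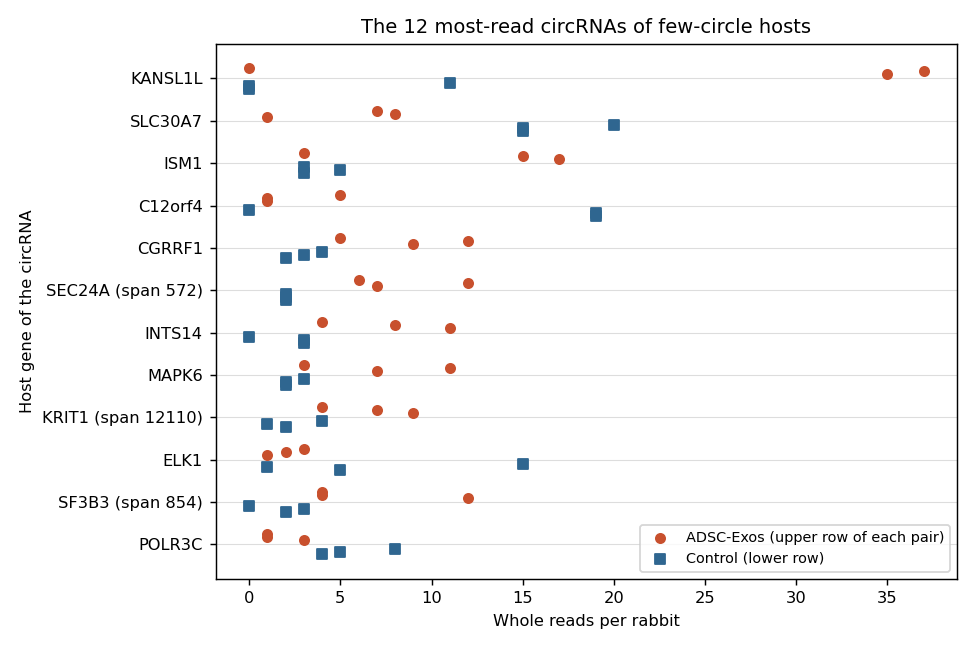
Whole reads of the 12 circRNAs with most reads among the 273, one point per rabbit (x axis, reads; rows, host gene, with the genomic span in bases where a host gave 2 circles), ADSC-Exos as circles above Control as squares. ADSC-Exos rabbits 2 and 3 stand apart with 37 and 35 reads for KANSL1L, and Control rabbits 2 and 3 with 19 reads each for C12orf4.

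The comparison of the arms asked which of these circRNAs differed in scars that had received exosomes. Loops of PPP2R5A rose and loops of EED fell, and they were the only 2 of the 273 to pass an adjusted p of 0.05 (limma, over the table of 1694, where 0.118% passed). PPP2R5A encodes a regulatory subunit of the phosphatase PP2A. Its circRNA, on chromosome 16 from 60682139 to 60687565, had 3, 5 and 3 reads in ADSC-Exos rabbits against none in the Control rabbits. EED encodes the subunit of Polycomb repressive complex 2 that reads trimethylated histone H3. Its circRNA spans chromosome 1 between 130432717 and 130442475, and reads were absent from ADSC-Exos rabbits against 4, 2 and 5 in Control rabbits. The log2 differences were 3.05 (SE 0.74) for PPP2R5A and -2.96 (SE 0.73) for EED, and for each the arms lay apart. Set against a limit of 3 reads over the silent arm, the mean of the other arm was 3.79-fold that limit for PPP2R5A and 3.52-fold for EED. The counting error of the 11 reads of each circRNA is not in these values, so the true folds can be smaller. The adjusted p was 0.0453 for each (limma). Over 15 alternative settings it ran from 0.000499 to 0.108 for PPP2R5A and from 0.00026 to 0.108 for EED, and each passed in 11. Neither passed with the replicate block, quantile normalization, a pseudocount of 0.01 or the size factors of the mRNA table. Of the 11 settings passed, the filter at a mean of 1 normalized read left the fit unchanged. Leaving out 1 rabbit, a pseudocount of 0.1, and limma without trend and robust settings each called 109 to 430 circRNAs of the table. The adjustment covers a table already selected for size of difference, so it is lenient, and in the authors' deposited table the FDR was 0.821 for all 273.

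Those of PFDN2, BPTF, CTPS2 and FAM3C were among the other circRNAs with reads in every ADSC-Exos rabbit and none in the Control rabbits. The circRNA of PFDN2, a subunit of the prefoldin chaperone for actin and tubulin, had 4, 3 and 2 reads in ADSC-Exos rabbits. That of BPTF, the largest subunit of the NURF chromatin remodeller, had 1, 3 and 4. That of CTPS2, a CTP synthase, had 5, 1 and 2, and that of FAM3C, a secreted protein, had 1, 2 and 5. Their ADSC-Exos means ran from 2.71-fold the same 3-read limit for BPTF and FAM3C to 3.16-fold for PFDN2, again without the counting error of the reads seen. Their adjusted p-values ran from 0.0587 to 0.0883 (limma), past the threshold for none.

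The largest differences also included circRNAs with a few reads in the Control rabbits. That of PTBP2, a splicing regulator best known in neurons, had 4, 8 and 7 reads in ADSC-Exos rabbits and 2, 1 and 0 in Control rabbits. That of NR3C2, the mineralocorticoid receptor, had 2, 5 and 4 reads in ADSC-Exos rabbits and 1, 0 and 0 in Control rabbits. That of PTPDC1, which carries a tyrosine phosphatase domain, had 5, 2 and 4 reads in ADSC-Exos rabbits and 0, 0 and 1 in Control rabbits. Every ADSC-Exos rabbit lay above every Control rabbit for these 3, with differences from 2.46 to 2.49 and adjusted p-values from 0.11 to 0.117 (limma).

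In the other direction, ENOSF1, SASS6 and NKTR gave circRNAs with no reads in ADSC-Exos rabbits. That of ENOSF1, a member of the enolase superfamily, had 4, 3 and 2 reads in Control rabbits. That of SASS6, the cartwheel protein of new centrioles, had 1, 5 and 3 reads, and that of NKTR, a cyclophilin-related protein, had 5, 1 and 2 reads in Control rabbits. For these 3 the Control mean was 2.56-fold to 2.88-fold the same 3-read limit. The circRNA of DCAF12, a substrate receptor of the CUL4 ubiquitin ligase, had 0, 0 and 1 reads in ADSC-Exos rabbits and 3, 6 and 6 in Control rabbits. ADSC-Exos rabbit 3 was thus the one ADSC-Exos animal with a read. The longer circRNA of AEBP2, an accessory protein of Polycomb repressive complex 2, had 0, 1 and 0 reads in ADSC-Exos rabbits and 3, 2 and 8 in Control rabbits. That of ARHGAP32, a GTPase-activating protein, had 1, 0 and 0 reads in ADSC-Exos rabbits and 6, 3 and 2 in Control rabbits. The Control rabbits lay above the ADSC-Exos rabbits for all 6, the differences ran from -2.86 for DCAF12 to -2.36 for ARHGAP32, and the adjusted p-values from 0.0587 to 0.117 (limma).

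**Figure D2:**
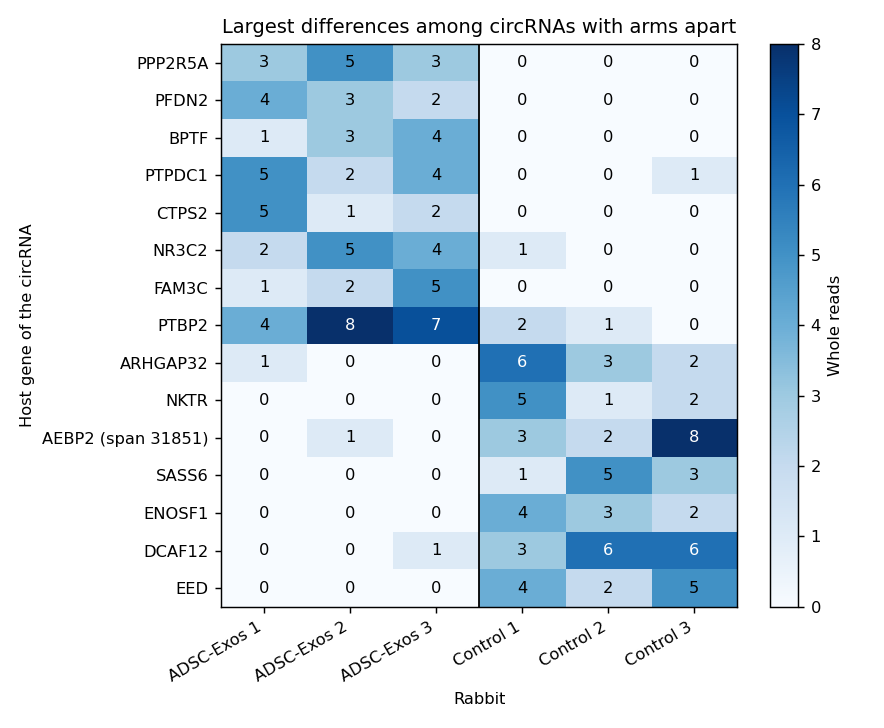
Whole reads of 15 circRNAs, the 8 with the largest positive and 7 of the 8 with the largest negative log2 difference among those whose arms do not overlap (rows, host gene; columns, rabbit; shade and number, reads; the black line parts the arms). No cell exceeds 8 reads, and the rows were ordered from PPP2R5A, highest in ADSC-Exos, to EED, lowest.

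Of the 273 circRNAs, 157 were listed higher and 116 lower in ADSC-Exos, 57.5% higher against 53.8% of the whole table. Unadjusted, 163 of the 273 (59.7%) had p under 0.05, where the share of the table was 16.7%. Of these, 95 were higher and 68 lower in ADSC-Exos, where such calls were 9.21% and 7.5% of the table. Of the 84 circRNAs with 6 or more reads from hosts with 3 or more circles, 64.3% were under the same p. Among the 273 the count was 106 without ADSC-Exos rabbit 1, where 30.6% of the table had such a p. It was 68 to 82 without any 1 of the other rabbits, where 20.6% to 24.0% of the table did. The count past the adjusted p was 24 to 40 without 1 rabbit, where 258 to 430 of the table passed. The arms did not overlap for 84 of the 273, 58 with ADSC-Exos above and 26 with ADSC-Exos below, a share of 30.8% where that of the table was 12%, made up of 7.32% above and 4.66% below. Among circRNAs with 6 or more reads from hosts with 3 or more circles the share was 25%. In whole reads without a size factor the arms did not overlap for 63, 37 above and 26 below, where the table had 10.4%, of which 5.73% above. The 21 that separate through the size factors alone all had ADSC-Exos above. In ADSC-Exos rabbit 1, 1 read counts as 2.20 normalized reads, and in the other 5 rabbits as 1.96, so a tie in reads between that rabbit and a Control rabbit becomes a higher value. No reads were found in the Control rabbits for 36 of the 273 and none in the ADSC-Exos rabbits for 27, where the shares of the table were 43.8% and 38.4%. The minimum of 6 reads bears on both counts. It also bears on the shares with p under 0.05 and with arms apart, since the median of the table was 3 reads. The standard errors followed the level of a circRNA. The excess of those shares over the table is therefore not a finding.

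**Figure D3:**
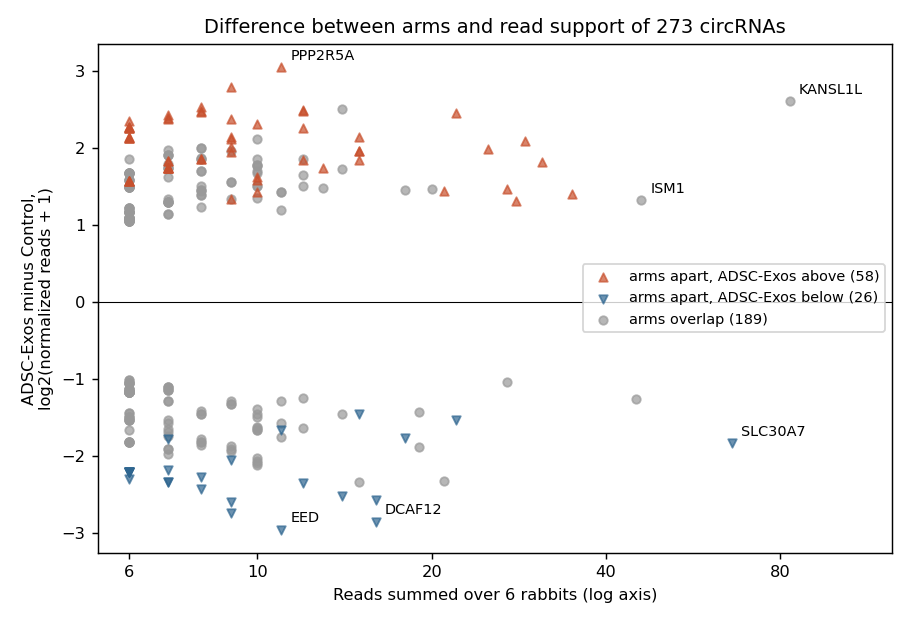
Log2 difference between the arms (y axis, ADSC-Exos minus Control, in log2(normalized reads + 1)) against reads summed over the 6 rabbits (x axis, log scale) for the 273 circRNAs, with symbols by whether the arms overlap. The gap around 0 is the authors' selection for an absolute difference over 1, and the largest differences, 3.05 for PPP2R5A and -2.96 for EED, belong to circRNAs with 11 reads each.

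Most of these values rest on few reads. The median of the 273 was 7 reads over all rabbits, 100 stood at the minimum of 6, 78 had 10 or more and 16 had 20 or more. Just inside the minimum, the 100 circRNAs with 6 reads had a median absolute difference of 1.49, and just outside it the 89 with 5 reads from hosts of the same kind had 1.62. Reads came from all 6 rabbits for 12 circRNAs, from 5 for 29, from 4 for 81, from 3 for 122, from 2 for 28 and from 1 for 1. In 106 a single rabbit held over 50% of the reads. The circRNA of EXOC5, a subunit of the exocyst, was the one with reads in a single animal, 7 in ADSC-Exos rabbit 3, and it was singled out after its values were seen. Leaving out 1 rabbit moved the difference by more than 1.5 times for 147 of the 273 and changed the sign of none, in a table where the sign and a size over 1 had been selected. The limma standard errors here followed the level of a circRNA, because the spread was shared almost wholly across the table, and they say little of a circRNA's own replicates.

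ADSC-Exos rabbit 1 stood apart from the other ADSC-Exos rabbits. Reads in the 273 were 286, 620 and 561 in ADSC-Exos rabbits 1 to 3 and 392, 366 and 403 in Control rabbits, with means of 489 ± 178 in ADSC-Exos and 387 ± 19.0 in Control scars (SD, n = 3 each). The Control rabbits lay between ADSC-Exos rabbit 1 and the other ADSC-Exos rabbits, so the arms overlap. Reads in all listed circRNAs moved alike, and the 273 held 33.4% of them in ADSC-Exos rabbit 1 (95% Wilson interval 30.3 to 36.6), 38.9% in rabbit 2 (36.6 to 41.4) and 36.7% in rabbit 3 (34.3 to 39.1). In Control rabbits the shares were 35.5%, 34.2% and 35.2%. Reads in the 157 listed higher were 240, 569 and 514 in ADSC-Exos rabbits and 80, 67 and 67 in Control rabbits. Rabbit 1 was the sole lowest of its arm in whole reads for 86 of these 157 and had no reads for 50, against 8 and 9 without reads in ADSC-Exos rabbits 2 and 3. Reads in the 116 listed lower were 46, 51 and 47 in ADSC-Exos rabbits and 312, 299 and 336 in Control rabbits. Both groups were formed by direction in these same rabbits. That keeps ADSC-Exos reads low in the 116 and Control reads low in the 157, so likeness within those arms is not a finding. The part of read depth in this pattern was not tested.

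Host genes were grouped by role in 8 lists of 27 to 49 genes. The lists do not hold every gene of a role and were written with earlier results known, so shares within a list depend on the genes it names. Of 39 hosts of much-studied mammalian circRNAs, 13 had listed circRNAs, and 5 circRNAs were among the 273, 3 listed higher and 2 lower. That of LPAR1, a receptor for lysophosphatidic acid, had 4, 4 and 8 reads in ADSC-Exos rabbits and 1, 2 and 2 in Control rabbits, without overlap. That of UBXN7, an adaptor of the p97 ATPase, had 6, 6 and 2 reads in ADSC-Exos rabbits and 1, 2 and 1 in Control rabbits. That of SHPRH, a ubiquitin ligase of DNA damage tolerance, had 5, 2 and 0 reads in ADSC-Exos and 0, 1 and 0 in Control rabbits. Those of ARHGAP5, a GTPase-activating protein, and CSNK1G3, a casein kinase, differed by -1.45 and -1.50. Of the 5, 2 were at an unadjusted p under 0.05, as were 59.7% of the 273 and 16.7% of the table. The median difference was 1.44, beside 1.17 over the 273 and 1.04 over the table. With no absolute difference under 1 listed, such a median shows the direction of most circRNAs and not a typical size.

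Of 49 chromatin and transcription regulators, 15 hosted listed circRNAs. They gave 4 of the 273, of which 3 were listed higher and EED fell. Beside BPTF, the circRNA of CHD9, a chromodomain helicase, had 1, 2 and 3 reads in ADSC-Exos rabbits and none in Control rabbits. That of ARID1B, a subunit of the SWI/SNF remodeller, had 3, 3 and 6 reads in ADSC-Exos rabbits and 2, 1 and 0 in Control rabbits. All 4 had arms that do not overlap, as did 30.8% of the 273 and 12% of the table. All 4 had an unadjusted p under 0.05, as did 59.7% of the 273 and 16.7% of the table. Their median difference, 2.05, likewise follows the direction of most of them. PBRM1, a remodeller subunit off this list, gave 2 circRNAs of the 273, with an unadjusted p of 0.126 and 0.012 (limma). Of 27 RNA-binding and splicing genes 6 hosted listed circRNAs, and PTBP2 and ADAR, the enzyme that edits adenosine to inosine in double-stranded RNA and is known to reduce circle formation, each gave 1 circRNA. That of ADAR had 1, 2 and 5 reads in ADSC-Exos rabbits and 1, 0 and 0 in Control rabbits, so its arms part through the size factors alone.

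Of 39 kinases and phosphatases, 17 hosted listed circRNAs. They gave 7 of the 273, with 3 listed higher and 4 lower. Of the 4 lower circRNAs, 3 had no reads in ADSC-Exos rabbits. These were the circRNAs of WNK1, a kinase that controls chloride cotransporters, with 1, 2 and 4 reads in Control rabbits, of MAP3K1, a kinase upstream of JNK, with 1, 2 and 3, and of ROCK1, a kinase of actomyosin contraction, with 2, 3 and 1. Their differences were -2.34 (SE 0.73), -2.22 (SE 0.75) and -2.22 (SE 0.75). All 3 were read in every Control rabbit. MAP4K3, a kinase of amino acid signalling, had 1, 0 and 0 reads in ADSC-Exos rabbits and 4, 5 and 0 in Control rabbits. Listed higher beside PPP2R5A were circRNAs of CLK4, a kinase of splicing factors, with 1, 7 and 3 reads in ADSC-Exos and 1, 0 and 0 in Control rabbits, and of PIK3CA, the catalytic subunit of a phosphoinositide kinase, with 1, 5 and 1 reads in ADSC-Exos and 0, 1 and 0 in Control rabbits. The arms of CLK4 part through the size factors alone, and those of MAP4K3 and PIK3CA overlap. All 7 were at an unadjusted p under 0.05, beside 59.7% of the 273 and 16.7% of the table. Kinases off the list included MAPK6 and PRKCH, with circRNAs at an unadjusted p of 0.268 and 0.0871, and PRKDC, at 0.014 (limma). Of the 7, PPP2R5A alone passed the adjusted threshold, beside 0.733% of the 273 and 0.118% of the table. The list was written with earlier results known, so this share is not a finding about kinases and phosphatases.

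Of 36 genes of TGF-beta, BMP and Wnt signalling, 8 hosted listed circRNAs, and 2 circRNAs were among the 273 and both were listed higher with overlapping arms. That of TGFBR3, betaglycan, the co-receptor that presents TGF-beta to its signalling receptors, had 0, 7 and 10 reads in ADSC-Exos rabbits and 2, 0 and 1 in Control rabbits. Its difference was 1.46 (SE 0.84; limma, adjusted p = 0.117). That of ACVR2A, an activin receptor, had 0, 5 and 3 reads in ADSC-Exos rabbits and 0, 0 and 1 in Control rabbits. In each, ADSC-Exos rabbit 1 had no reads and the other ADSC-Exos rabbits lay above the Control rabbits. Without that rabbit the differences were 2.83 for TGFBR3 and 2.59 for ACVR2A. Leaving out ADSC-Exos rabbit 2 or 3 instead made both differences smaller than with all rabbits. Of 37 matrix and adhesion genes 9 hosted listed circRNAs, with 1 of the 273, that of ITGAV, the integrin chain that binds and activates latent TGF-beta, with 0, 0 and 2 reads in ADSC-Exos rabbits and 7, 0 and 2 in Control rabbits.

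Of 32 ubiquitin genes 17 hosted listed circRNAs, with 4 of the 273, 2 in each direction, from DCAF12, UBR2 and 2 circles of DCAF6, a receptor of the CUL4 ligase. That of UBR2, a ligase of the N-degron pathway, had 0, 1 and 5 reads in ADSC-Exos rabbits and none in Control rabbits. Of 34 genes of cytoskeleton and membrane traffic 19 did, with 6 of the 273, 4 higher and 2 lower, and 1 was at an unadjusted p under 0.05. That one was of MYO9A, a myosin with a GTPase-activating domain, with no reads in ADSC-Exos rabbits and 2, 1 and 3 in Control rabbits. The circRNAs of SNX13, a sorting nexin, DST, a linker of cytoskeletal filaments, and EXOC6B, an exocyst subunit, differed by 1.34, 1.05 and 1.22, and their arms overlapped. Leaving out ADSC-Exos rabbit 1 gave 1.83 for DST and 0.63 for EXOC6B, and leaving out ADSC-Exos rabbit 2 gave 0.26 for DST and 2.09 for EXOC6B. Of the 53 circRNAs on these lists or among the most read and most changed, 20 moved by over 1.5 times without 1 rabbit. Differences between the lists were not tested.

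For hosts with 2 listed circles, the directions of both circles were compared. Each circle had been selected for an absolute difference over 1, and most rest on few reads. The counts therefore do not measure how circles of 1 gene move together. Both circles were among the 273 for 14 hosts, and their directions were the same for 6 and opposite for 8. Of the 79 hosts with 1 such circle, the directions were the same for 50 and opposite for 29. Over all 235 hosts with 2 listed circles, which include these, 50.2% had the same direction. Circles of 1 host share a gene, and 7 of the 14 pairs share 1 back-splice end.

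SEC24A gave the best-counted opposite pair. Beside the 572-base circle described above, a 529-base circle that starts 19167 bases beyond its end had 0, 2 and 2 reads in ADSC-Exos rabbits and 6, 3 and 5 in Control rabbits. The arms did not overlap for either circle, and the differences were 1.81 (SE 1.21) and -1.76 (SE 0.95). Reads of the 2 circles together were 6, 14 and 9 in ADSC-Exos rabbits and 8, 5 and 7 in Control rabbits, so the sums overlapped. SF3B3 had a second circle with 0, 0 and 2 reads in ADSC-Exos rabbits and 1, 1 and 7 in Control rabbits, against the direction of its first; without Control rabbit 3 its difference of -1.57 was -0.80. The circles of DCAF6, apart by 31266 bases, differed likewise. The circle of 5587 bases had 2, 4 and 1 reads in ADSC-Exos against none in Control rabbits, and that of 6590 bases had 0, 1 and 0 in ADSC-Exos against 2, 2 and 1 in Control rabbits.

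Opposite directions also occurred where the circles shared an end. The longer circle of AEBP2 and a shorter one inside it end at the same base, and the shorter had 1, 2 and 2 reads in ADSC-Exos rabbits and 0, 1 and 0 in Control rabbits. PBRM1, a subunit of the PBAF remodeller, had a long circle with 0, 0 and 1 reads in ADSC-Exos and 5, 0 and 1 in Control rabbits, and a short one with 2, 2 and 2 in ADSC-Exos and 0, 1 and 0 in Control rabbits. In contrast, LARS, the leucyl-tRNA synthetase, had 2 partly overlapping circles with 1, 1 and 7 and with 0, 5 and 1 reads in ADSC-Exos rabbits, and neither had reads in Control rabbits. The other listed circle of EED, with 2 reads in all and so outside the 273, had 1, 0 and 1 reads in ADSC-Exos and none in Control rabbits. PBRM1, LARS and the second circles of SF3B3, AEBP2 and EED were chosen for this account after their values were seen.

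**Figure D4:**
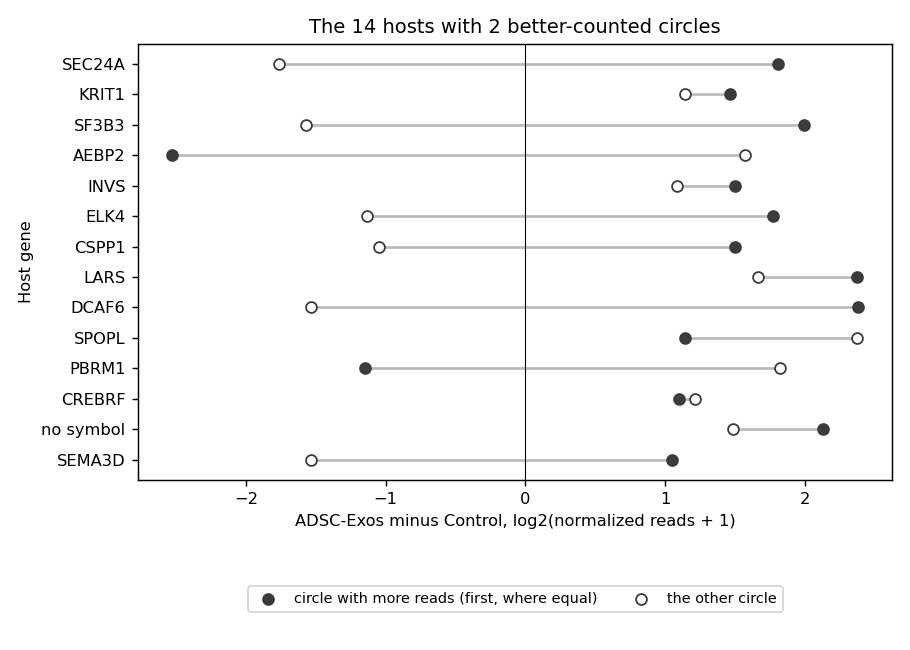
Log2 differences (x axis, ADSC-Exos minus Control, in log2(normalized reads + 1)) of both circles of the 14 hosts whose 2 listed circles each had 6 or more reads (rows), the circle with more reads filled and the other open. Lines that cross 0 join circles of opposite direction, 8 of the 14.

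Linear transcripts of 5 of the 256 hosts were among the 421 mRNA transcripts of the authors' mRNA table, which is a selection of its own. FKBP5, a co-chaperone of steroid receptors and a well-known glucocorticoid target, had 1491, 19853 and 13196 mRNA reads in ADSC-Exos rabbits and 1346, 2297 and 3163 in Control rabbits. Its circRNA had 0, 2 and 6 reads in ADSC-Exos rabbits and none in Control rabbits. AOX1, an aldehyde oxidase, had 1353, 11627 and 9189 mRNA reads in ADSC-Exos rabbits and 2260, 2493 and 2399 in Control rabbits, and its circRNA had 0, 8 and 2 reads in ADSC-Exos rabbits and none in Control rabbits. In both genes ADSC-Exos rabbit 1 lay near or below the Control rabbits for the mRNA and had no circRNA reads.

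For ISM1 the mRNA reads were 1278, 3834 and 2745 in ADSC-Exos rabbits and 1215, 1293 and 1137 in Control rabbits, and rabbit 1 was again the lowest ADSC-Exos rabbit for the mRNA and the circRNA. NPR3, the clearance receptor of natriuretic peptides, had 516, 189 and 186 mRNA reads in ADSC-Exos rabbits and 613, 520 and 908 in Control rabbits, and its circRNA had none in ADSC-Exos rabbits and 1, 0 and 6 in Control rabbits. The log2 differences of circRNA and mRNA were 1.99 and 1.81 for FKBP5, 2.12 and 1.18 for AOX1, 1.32 and 1.01 for ISM1 and -1.75 and -1.29 for NPR3. The circRNA differences moved with single rabbits. Leaving out ADSC-Exos rabbit 1 gave 2.99 for FKBP5 and 3.18 for AOX1. Leaving out ADSC-Exos rabbit 3 gave 1.15 for FKBP5, leaving out ADSC-Exos rabbit 2 gave 1.15 for AOX1, and leaving out Control rabbit 3 gave -0.78 for NPR3. The fifth host, FAM98B, had a listed transcript with 0, 368 and 549 reads in ADSC-Exos rabbits and none in Control rabbits, while its circRNA had 0, 1 and 0 reads in ADSC-Exos and 0, 2 and 3 in Control rabbits. The mRNA FDR in the authors' deposited table was 0.444 for FKBP5, 0.597 for AOX1, 0.144 for ISM1, 0.334 for NPR3 and 0.257 for FAM98B.

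Position and type were not used to choose the circRNAs. The authors' annotation gave 261 of the 273 as exonic, 9 as exon and intron and 3 as intergenic, 95.6% exonic against 94.8% of the table. The genomic distance between the back-splice ends, introns included, had a median of 5052 bases (quartiles 1824 and 11909), against 8964 bases for the other 1421 listed circRNAs. Hosts of the same kind with 5 reads, just under the minimum, had circRNAs with a median of 5522 bases, so a shorter distance was not limited to the 273. Within the 273 the median was 3388 bases for sole circles of a host and 6729 bases for circles of hosts with 2. Distances under 1000 bases were found for 37 of the 273, 13.6%, against 8.23% of the other listed circRNAs and 14.6% of those with 5 reads from hosts of the same kind. The shortest, of RIC1, a Golgi exchange factor, lay on chromosome 1 from 48430283 to 48430486, 204 bases, and the longest, of EXOC6B, on chromosome 2 from 113850781 to 114093004, 242224 bases. No test was made of these medians, since circRNAs of a library are not replicates. The 273 lay on all 22 chromosomes that the table names.

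**Figure D5:**
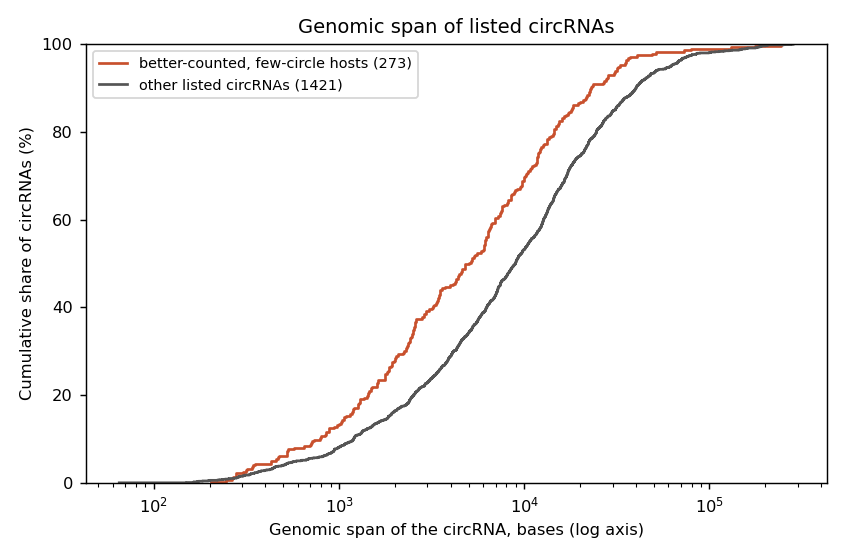
Cumulative share of circRNAs (y axis, percent) by genomic span in bases (x axis, log scale), for the 273 circRNAs and for the other 1421 listed ones. The curve of the 273 lies to the left, with medians of 5052 and 8964 bases.

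The 3 circRNAs without a host had 6 reads each. Those on chromosome 17, from 437366 to 472623 and from 468625 to 485955, lie in a window of 84710 bases that holds 6 of the 12 listed circRNAs without a host, with 30 reads in all. The first had 0, 1 and 0 reads in ADSC-Exos rabbits and 4, 0 and 1 in Control rabbits. The second had 1, 3 and 1 reads in ADSC-Exos rabbits and 0, 1 and 0 in Control rabbits. The third lay on chromosome 12 between 129091304 and 129091730, with 0 reads in each ADSC-Exos rabbit and 2, 4 and 0 in the Control rabbits. The arms overlapped for each of the 3.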

How the data were processed

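The authors deposited log2 values per rabbit, a log2 fold change, p-values and FDR. The submitters' processing notes name DESeq2 1.30.1, HTSeq 2.0.3, STAR 2.7.6a, Trimmomatic 0.40 and FastQC 1.0.0, with no roles. Neither the circRNA caller nor the genome build is given in the sources used here. Coordinates are those of the authors' table. Raising 2 to the value and subtracting 1 gave multiples of 1 step per library, and 100% of values came out whole (tolerance 0.01); these multiples are the whole reads.

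The test between arms was limma's moderated test (version 3.58.1, R 4.3.3, with trend and robust settings) on all 1694 circRNAs, without a filter and with Benjamini-Hochberg adjustment over the table. The prior degrees of freedom were infinite for 1693 circRNAs, so the standard error followed the level. An exact permutation test with 3 rabbits an arm cannot give a p under 0.1. The code was tested on simulated data with higher counts than these circRNAs have and without a selection for difference. That test does not give error rates at the counts seen here. Whether each rabbit is an independent unit rests on the labels.

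Hosts marked n/a were read as empty, which adds 3 circRNAs. Named circRNAs passed the adjusted threshold, were among the 12 with most reads, were among the 8 most changed in each direction with arms apart, or had a host on 1 of 8 lists; others were chosen after their values were seen. Of those the rule names, 1 circRNA is not reported here, nor are the markers of 1 cell type. Members, lists and the rule were chosen with earlier results of these data known. Alternatives were other scalings, pseudocounts, filters and options, a replicate block and leaving out each rabbit.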

Additional observations from a re-analysis of the deposited data

How the results depend on the processing

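Counts of a few reads and selected circRNAs limit every value, and the number called moved with the settings. The 2 circRNAs past an adjusted p of 0.05 were 3 when reads were left unscaled, 28 with limma's trend and robust settings off, 35 with a pseudocount of 0.1, 13 with only circRNAs of 6 or more reads in the fit, 24 to 40 without 1 rabbit, and 0 with a pseudocount of 0.01, with quantile normalization, with the mRNA table's size factors or with the replicate block. The 163 at an unadjusted p under 0.05 were 85 with a pseudocount of 0.1, 61 with a pseudocount of 0.01, 107 with the replicate block and 68 to 106 without 1 rabbit. That count was 120 to 145 under the other settings, and dropping circRNAs under a mean of 1 normalized read removed nothing. Over the whole table, the count past the adjusted p was 12 with unscaled reads, 128 with trend and robust off and 109 with a pseudocount of 0.1. It was 15 with only circRNAs of 6 or more reads in the fit and 258 to 430 without 1 rabbit. The share of the table at an unadjusted p under 0.05 was 12.2% with a pseudocount of 0.1 and 10.3% with 0.01. It was 12.5% with the replicate block, 20.6% to 30.6% without 1 rabbit and 12.3% to 15.3% under the other settings that changed the fit of the whole table. With only circRNAs of 6 or more reads in the fit, it was 48.5% of those fitted. The causes were not tested. Same-numbered rabbits had correlations of deviations from -0.0543 to -0.0217. At counts this low such correlations cannot show whether the numbers pair rabbits. The count listed higher, 157, was 156 to 158. The arms did not overlap for 63 with unscaled reads, where the share of the table was 10.4%, and for 93 with the mRNA table's size factors. The share of the table under the mRNA scaling is not given here. The mRNA scaling was chosen after seeing the data. With 8 or more reads required, 38.9% had arms apart and 59.5% were listed higher. Among the 273 these shares were 30.8% and 57.5%, and in the table, without a read minimum, 12% and 53.8%. Of 53 named circRNAs, C12orf4 changed sign, to 0.54 with a pseudocount of 0.01. Over 12 settings for each of these (636 comparisons, without the 2 filters and the mRNA scaling), the call stayed as reported in 535, was gained in 94 and was lost in 6.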
